A study of Mus musculus with 25 samples.

Results

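The RNA of genes for acidification and fluid transport in the epididymis was followed in mouse sperm. The genes were 10 symbols of the 24358 in the count table, taken where the quantification had succeeded, and all 10 had a value in all 5 conditions. They comprised the proton pump subunits Atp6v1b1, Atp6v0d2 and Atp6v1g3, the transcription factor Foxi1, the ion and bicarbonate genes Slc4a9, Slc9a3, Cftr and Car2, and the water channels Aqp9 and Aqp1. Sperm that swam out of incised cauda epididymides was used, and its RNA was sequenced in 25 libraries, 5 per condition, with a chemistry that repairs RNA ends so that RNAs of any type can be ligated and read (all-RNA-seq). Vehicle C57BL/6J and vehicle FVB/N (C57.CTL.F1 and FVB.CTL.F1 in the plots) were males whose mothers had received corn oil during pregnancy. Exposed C57BL/6J and exposed FVB/N (C57.D300.F1, FVB.D300.F1) were males whose mothers had received 300 mg/kg/day of the phthalate DEHP in corn oil from embryonic day 9 to 19. C57BL/6J F2 (C57.D300.F2) were males of the next generation, sired by prenatally exposed F1 males with unexposed females. All males were 14 weeks old according to the labels, and no vehicle F2 condition was analysed here.

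The epithelium of the epididymis keeps the luminal fluid acidic and concentrated, which holds sperm quiescent until ejaculation. Clear cells secrete protons through a vacuolar proton ATPase (V-ATPase) whose cell-type-restricted subunits are shared with kidney intercalated cells, and the forkhead factor Foxi1 drives that program. Principal cells reabsorb bicarbonate and water with the help of sodium proton exchange, carbonic anhydrases and aquaporins, and can secrete chloride and bicarbonate through the anion channel CFTR.

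Each value is 1 estimated fragment count that combines the 5 libraries of a condition, printed with the SD of the quantification model. It has no replicate check, no p-value could be computed, and the model SD is not a spread between libraries. The counts of a condition summed to between 6921688 and 8602900. The labels mark the 10 libraries of vehicle C57BL/6J and exposed C57BL/6J as re-analysed from earlier work, and the other 15 were newly made. In the F2 and strain ratios below, differences between generations or strains therefore cannot be told apart from differences between library sets. Each F1 exposure ratio stays within 1 set. C57BL/6J F2 and both FVB/N conditions also share a set, but they differ in strain and generation together. Vehicle C57BL/6J is the denominator of 3 of the 5 ratios, and both F2 ratios use C57BL/6J F2, so these ratios are not independent of each other. All 8 markers of late male germ cells were above 3 counts in every condition. Their sum ranged from 6862 in vehicle FVB/N to 83011.5 in vehicle C57BL/6J. Among the 15 principal cell markers with a value in all conditions, Adam7 was the most abundant in each. A further one, Crisp1, was left out of the sums because its estimate had failed in 3 conditions. It had 108274 counts in vehicle C57BL/6J and 219328 in exposed FVB/N, above Adam7 in both, each with a model SD larger than the count.

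The 10 genes lie on 8 chromosomes of mm10 (GRCm38), and Atp6v1b1, Cftr and Aqp1 share chromosome 6. Gene positions are those of GENCODE M21 and are given with each gene. RefSeq promoters of 300 bases, from 250 before to 50 after the start, were at hand for 7 of the genes on GRCm38.p6. They were searched on both strands for TGTTTAC, a forkhead core of the kind that Foxi1 and its relatives recognise, and for AGAACA, a short motif that androgen and glucocorticoid receptors recognise. TGTTTAC was found in 1 of these genes and in 3.65% of all 32851 promoters. AGAACA was found in Aqp9 and Foxi1 and in 19.0% of all promoters. The sequences with a match are given below, with the searched letters in capitals.
Atp6v1b1, 223 bases before the annotated gene, plus strand, chr6:83742767-83742989: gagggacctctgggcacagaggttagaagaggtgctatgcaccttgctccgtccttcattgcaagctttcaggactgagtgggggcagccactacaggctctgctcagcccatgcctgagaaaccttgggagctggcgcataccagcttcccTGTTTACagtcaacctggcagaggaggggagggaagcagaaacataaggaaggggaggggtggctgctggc
Aqp9, match with 10 bases on either side, minus strand, chr9:71163412-71163437: aagtagccagAGAACAgagaataaag
Foxi1, match with 10 bases on either side, minus strand, chr11:34208051-34208076: gcagctccagAGAACAcaggtgcggc
The match in Atp6v1b1 begins 98 bases before the RefSeq start, and that in Aqp9 begins 138 bases before its start. The match in Foxi1 begins at base 24 of the transcript. The Aqp9 match lies in an exon of another Aqp9 transcript in GENCODE M21, and Aqp9 has a further RefSeq promoter without a match. A match is a run of letters and does not show that a factor binds there.

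Set per length, Aqp9 was the most abundant of the 10 genes and Slc4a9 the least in each of the 5 conditions. Counts per kb of merged exons (GENCODE M21) for Aqp9 lay between 403.5 in exposed FVB/N and 499.7 in exposed C57BL/6J. In vehicle C57BL/6J this was more than in 94.6% of the 16991 genes with a length and at least 10 counts in some condition. Slc4a9 had between 0.929 and 1.94 counts per kb. In vehicle C57BL/6J, Car2 followed Aqp9 at 239 ± 57.9 counts per kb (model SD), then Foxi1 at 148 ± 35.4, Aqp1 at 130 ± 33.7, Slc9a3 at 96.5 ± 22.8, Atp6v1g3 at 76.8 ± 19.6 and Atp6v0d2 at 65.4 ± 16.0. Atp6v1b1 at 15.8 ± 4.57 and Cftr at 14.5 ± 3.83 were close to the lower end. In both FVB/N conditions, Slc9a3 came next after Aqp9, at 175 and 215 counts per kb, while Aqp1 stood at rank 7, with 41.3 and 32.6.

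The highest and the lowest of the 5 values of a gene differed by more than the model SD of that difference in 7 of the 10 genes. The exceptions were Aqp9, Atp6v1b1 and Slc4a9. On the log2(count + 1) scale, 4 of the 10 genes spanned at least 1 unit, namely Aqp1 at 1.98, Slc9a3 at 1.37, Car2 at 1.13 and Cftr at 1.01, and 44.0% of all genes did so. No gene of the list spanned 2 units, against 15.3% of all genes. Aqp9 had the narrowest span, 0.31.

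**Figure D1:**
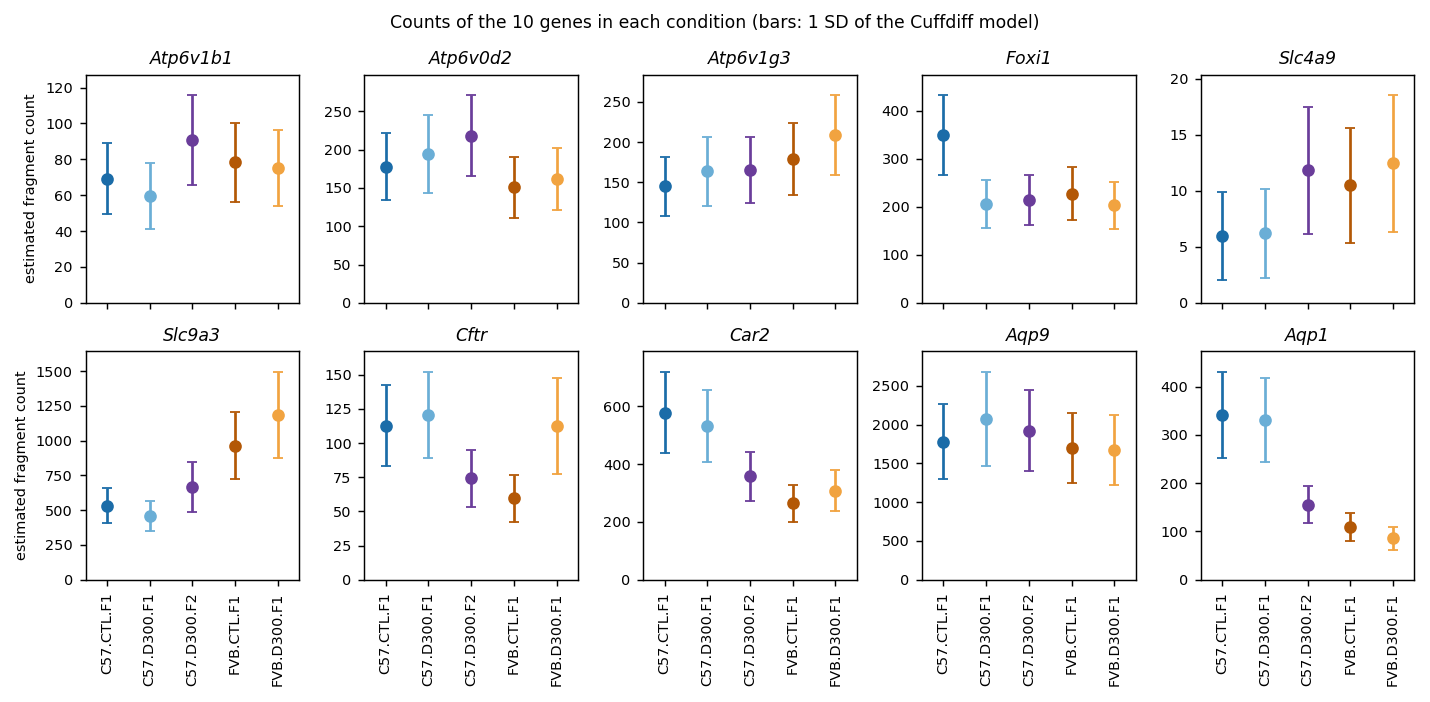
Estimated fragment counts (y axis, a separate linear scale from 0 for each gene) of the 10 genes in the 5 conditions (x axis), with bars of 1 SD of the Cuffdiff model. The 3 pump subunits and Aqp9 stay within overlapping bars, Foxi1 stands highest in vehicle C57BL/6J, Slc9a3 is highest in the FVB/N conditions, and Car2 and Aqp1 are highest in the C57BL/6J F1 conditions.

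The first comparison asks what prenatal DEHP did in C57BL/6J. By log2 ratio Foxi1 differed most, at 348 ± 83.3 counts in vehicle C57BL/6J and 205 ± 50.2 in exposed C57BL/6J, a log2 ratio of -0.76. This difference of 143 counts exceeded its model SD of 97.3. Foxi1 was the only one of the 9 genes with at least 10 counts whose difference did so, beside 6.57% of all genes tested. The other 8 log2 ratios lay between -0.22 and 0.22. Vehicle C57BL/6J was also the condition with the largest sum of the 6 seminal vesicle markers, 226304 counts, against between 687 and 2136 in the other conditions. Each of the 6 had a model SD above its count in vehicle C57BL/6J, and in the C57BL/6J exposure ratio 0 of 6 differed by more than the model SD of the difference. The 5 smooth muscle markers, of which 1 differed by more than its model SD in this ratio, summed to 17808 counts in vehicle C57BL/6J and to between 7680 and 11637 in the others. Their part in the Foxi1 difference was not tested. In bulk RNA, fewer cells of a type and less RNA per cell cannot be told apart. Counted at 2 log2 units, 0 of 9 genes were higher and 0 were lower, beside 0.0357% and 0.256% of all genes. At 1 log2 unit the counts were again 0 and 0, beside 1.09% and 1.15%. The median log2 ratio was -0.04, and that of all genes was -0.01.

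The next comparison asks the same in FVB/N. By log2 ratio Cftr differed most, at 59.5 ± 17.4 counts in vehicle FVB/N and 113 ± 35.0 in exposed FVB/N, a log2 ratio of 0.91. The difference of 53.1 counts exceeded its model SD of 39.1, as in 5.65% of all genes, and no other gene of the 10 passed this mark. Aqp1 had the lowest log2 ratio, -0.34, which stayed within the model SD. At 2 log2 units 0 of 10 genes were higher and 0 lower, beside 0.662% and 0.0182% of all genes, and at 1 log2 unit 0 and 0, beside 2.16% and 0.619%. The median was 0.16 against 0.00 over all genes. In the same ratio the summed count of the 15 principal cell markers was 37662 in vehicle FVB/N and 94519 in exposed FVB/N, and the number of these markers at 3 counts or fewer was 6 and 0. The difference exceeded its model SD in 10 of the 15. Of these, Lcn6, Lcn8, Lcn9, Lcn10, Cst8, Cst11, Cst12 and Spint4 had under 10 counts in vehicle FVB/N. They passed the filter only through exposed FVB/N, where they were high. The difference did not exceed its model SD for Adam7, which made up most of both sums, at 37310 ± 26055 and 53922 ± 58405 counts. Nor did it for Lcn5, an epididymal lipocalin, at 9.18 ± 4.88 and 6686 ± 9206 counts. The same held for Gpx5, an epididymal glutathione peroxidase, at 71.4 ± 20.8 and 24121 ± 80054, and for Spag11b and Adam28. In exposed FVB/N each of these genes had a model SD above its count. The pump subunits Atp6v1b1, Atp6v0d2 and Atp6v1g3 had log2 ratios of -0.06, 0.10 and 0.22 in that ratio, and Aqp9 had -0.02.

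The response to DEHP in FVB/N minus that in C57BL/6J was largest for Cftr, at 0.82 log2 units, followed by Foxi1 at 0.60 and Slc9a3 at 0.51. It was lowest for Aqp1, at -0.29. At 2 log2 units 0 of 10 genes were called in either direction, beside 0.997% of all genes higher and 0.228% lower. The median was 0.17, and over all genes it was 0.03. With all conditions set to equal totals, the median of the 10 genes became -0.10 and that of all genes became -0.25.

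The next comparisons set the F2 generation of the exposed lineage beside both F1 conditions, which share neither generation nor library set with it. Aqp1 was lower in C57BL/6J F2, at 156 ± 38.5 counts, than in vehicle C57BL/6J, at 341 ± 88.5, and than in exposed C57BL/6J, at 331 ± 86.9. The log2 ratios were -1.13 and -1.08. Scaled to equal totals, they were -0.82 and -0.92, and with upper-quartile factors -0.92 and -0.90, so that a call at 1 log2 unit rests on the scaling. Car2 was also lower, by log2 ratios of -0.69 and -0.57, and so was Cftr, by -0.59 and -0.69. Against vehicle C57BL/6J, the difference exceeded its model SD in 4 of 10 genes, all lower in F2 (Aqp1, Car2, Foxi1 and Cftr), beside 26.9% of all genes in either direction. Against exposed C57BL/6J it did so in 4 of 10 genes, beside 22.2%. These were Aqp1, Cftr and Car2, which were lower, and Slc9a3, which was higher by 0.55.

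At 2 log2 units 0 of 10 genes were called in either F2 ratio. The shares of all genes were 0.584% higher and 3.61% lower against vehicle C57BL/6J, and 0.333% higher and 3.30% lower against exposed C57BL/6J. At 1 log2 unit, on the deposited scale, Aqp1 was the only gene called, as lower, in both ratios. Slc4a9, at 0.88 against vehicle C57BL/6J, had 1.16 with equal totals and 1.07 with upper-quartile factors, and its difference did not exceed the model SD. The shares were 4.10% higher and 10.2% lower against vehicle C57BL/6J, and 2.69% higher and 8.35% lower against exposed C57BL/6J. The medians of the 10 genes were 0.15 and 0.04, and those of all genes were -0.04 and -0.05.

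The last comparison sets the strains side by side without DEHP. Aqp1 was again the lowest, at 108 ± 29.0 counts in vehicle FVB/N against 341 ± 88.5 in vehicle C57BL/6J, a log2 ratio of -1.65. Car2 followed at 264 ± 64.0 against 579 ± 140, a log2 ratio of -1.13, which was -0.94 with equal totals. Slc9a3 was the highest, at 963 ± 241 against 531 ± 126, a log2 ratio of 0.86, which was 1.04 with equal totals. The difference exceeded its model SD in 5 of 10 genes, beside 41.2% of all genes. Of these, Aqp1, Car2, Cftr and Foxi1 were lower in FVB/N and Slc9a3 was higher. At 2 log2 units 0 of 10 genes were called, beside 1.44% of all genes higher and 8.88% lower. At 1 log2 unit 0 were higher and 2 lower, beside 7.50% and 18.8%. The median was -0.15, and that of all genes was -0.03.

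**Figure D2:**
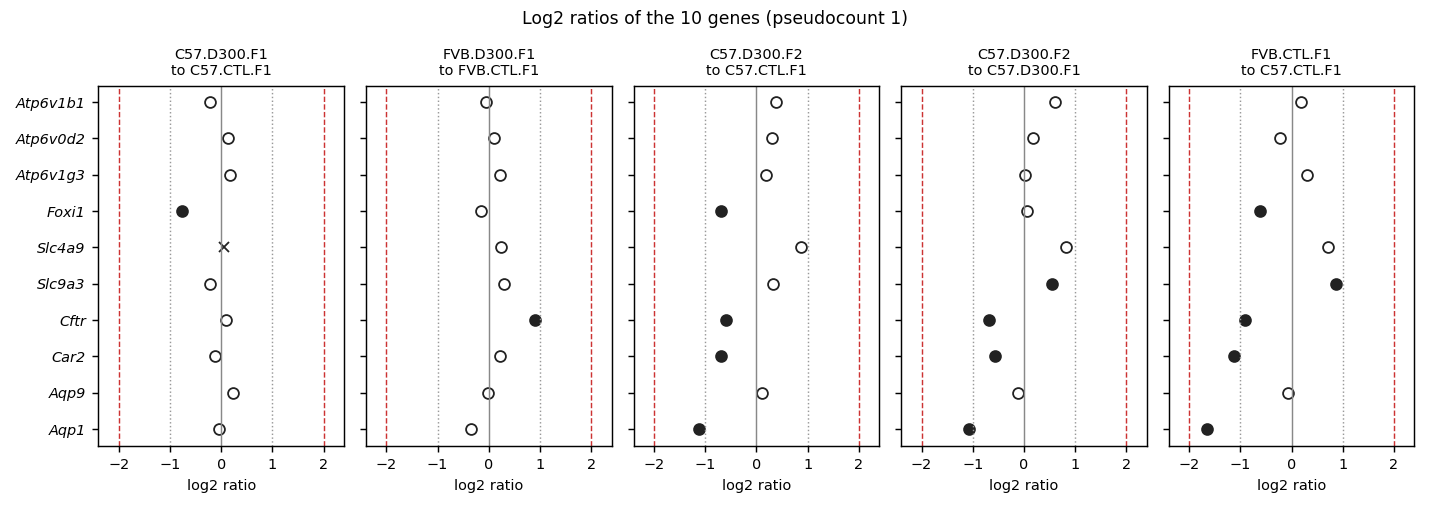
Log2 ratios (x axis, pseudocount 1) of the 10 genes (y axis) in 5 comparisons, with filled points where the difference exceeds its model SD and a cross where both counts were under 10. Dotted lines mark 1 and dashed lines 2 log2 units. Aqp1 passes -1 in the F2 and strain ratios, Car2 passes -1 in the strain ratio, and no point passes 2 units.

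Among the pump subunits, Atp6v1b1 (chr6:83742990-83758855, plus strand) encodes the B1 subunit of the peripheral sector that holds the catalytic head. It had 69.2 ± 20.0 counts in vehicle C57BL/6J, 59.5 ± 18.6 in exposed C57BL/6J, 90.6 ± 25.1 in C57BL/6J F2, 78.5 ± 22.0 in vehicle FVB/N and 75.2 ± 21.3 in exposed FVB/N. No neighbouring pair in the order of its conditions, and not the highest against the lowest, differed by more than the model SD. Atp6v0d2 (chr4:19876841-19922605, minus strand) encodes the d2 subunit of the membrane sector. Its counts were 178 ± 43.5, 194 ± 51.0, 218 ± 52.7, 151 ± 39.6 and 161 ± 40.6 in the same order of conditions. Its highest value, in C57BL/6J F2, exceeded its lowest, in vehicle FVB/N, by 67.5 counts, with a model SD of 65.9. Atp6v1g3 (chr1:138273738-138289462, plus strand) encodes the G3 subunit of the peripheral stalk. Its counts were 145 ± 37.0, 163 ± 42.5, 165 ± 41.4, 178 ± 44.8 and 209 ± 49.8. The highest and lowest differed by 63.6 counts with a model SD of 62.0. All of the neighbours in the orders of Atp6v0d2 and Atp6v1g3 differed by less than their model SD.

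The other 22 subunits and accessory proteins of the pump gave 0 calls at 2 log2 units in any of the 5 ratios, and 21 or 22 of them had at least 10 counts. Their medians ranged from -0.05 in the C57BL/6J exposure ratio to 0.15 in the strain ratio. At 1 log2 unit, 1 subunit was called as higher in C57BL/6J F2 against vehicle C57BL/6J and 1 as lower in vehicle FVB/N against vehicle C57BL/6J, beside 4.10% and 18.8% of all genes. Both are named here after their values were seen. The first was Atp6v0c, the proton-carrying c subunit, with 143 ± 105 and 331 ± 163 counts. Its model SD was large, and 2 annotated pseudogenes carry its name, so its counts are uncertain. The second was Atp6v1e2, the testis form of the E subunit, with 21.2 ± 8.12 counts in vehicle C57BL/6J and 4.96 ± 3.32 in vehicle FVB/N. It passed the filter in this ratio only through vehicle C57BL/6J. The sum of late germ cell markers in vehicle C57BL/6J and vehicle FVB/N was 83011.5 and 6862. The part of germ cell RNA in the Atp6v1e2 difference was not tested. Per kb, the accessory proteins Atp6ap2 and Atp6ap1 were the most abundant of the list, with 412 and 405 counts per kb in vehicle C57BL/6J.

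The cell-type-restricted subunits have widely expressed counterparts, and their share per kb within a condition does not depend on the scaling between conditions. Atp6v1b1 made up between 12.0% and 16.8% of the pair with Atp6v1b2, the B2 form. Atp6v0d2 made up between 15.3% and 21.8% of the pair with Atp6v0d1. Atp6v1g3 made up between 17.8% and 21.5% of the pair with Atp6v1g1. In all 3 pairs the highest and lowest shares differed by less than the model SD of their difference, which was 6.68, 7.21 and 7.78 percentage points. The a4 form of the membrane sector, Atp6v0a4, had a lower share, between 4.81% and 10.8% of its pair with Atp6v0a1. Atp6v1c2, an epithelial form of the C subunit, was the majority form of its pair in all conditions, with between 82.5% and 90.4%. Its model SD was large, up to 1.66 times its count, in vehicle FVB/N.

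**Figure D3:**
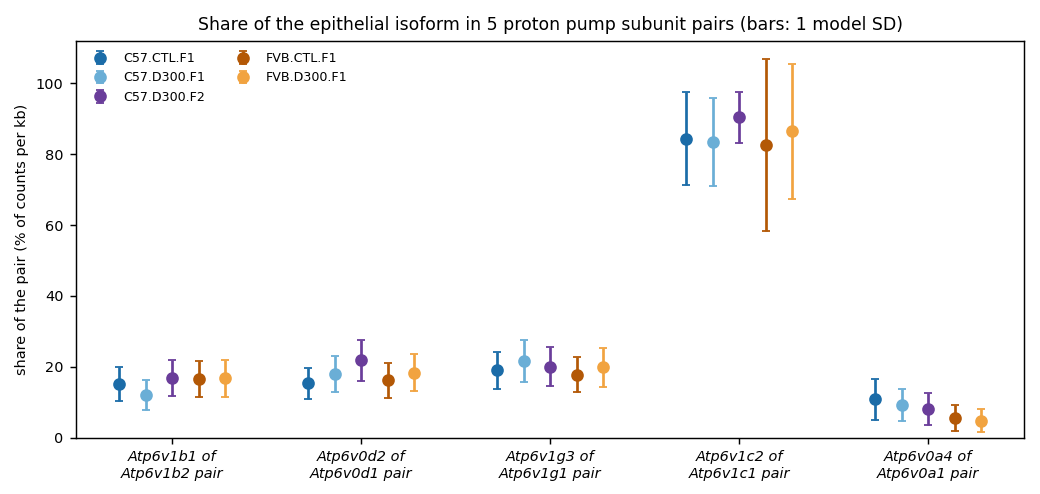
Share of the cell-type-restricted form in the counts per kb of 5 pairs of V-ATPase subunits (y axis, percent), by pair (x axis) and condition (colour), with bars of 1 model SD. Atp6v1b1, Atp6v0d2 and Atp6v1g3 lie between 12.0% and 21.8% in all conditions, Atp6v0a4 lies at 10.8% or below, and Atp6v1c2 lies at 82.5% or above.

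Foxi1 (chr11:34204338-34208089, minus strand) had 348 ± 83.3 counts in vehicle C57BL/6J, 205 ± 50.2 in exposed C57BL/6J, 214 ± 52.4 in C57BL/6J F2, 227 ± 54.9 in vehicle FVB/N and 203 ± 49.1 in exposed FVB/N. It was thus highest in vehicle C57BL/6J and close to equal in the other 4 conditions. The step from vehicle C57BL/6J to the next condition in the order, vehicle FVB/N, was 121 counts with a model SD of 99.8, and the later steps were between 2.39 and 13.0 counts. The pump subunits Atp6v1b1, Atp6v0d2 and Atp6v1g3 had no such excess in vehicle C57BL/6J, where other conditions had higher values of each.

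Slc9a3 (chr13:74121457-74169442, plus strand) encodes the apical sodium proton exchanger NHE3. It had 531 ± 126 counts in vehicle C57BL/6J, 456 ± 106 in exposed C57BL/6J, 667 ± 178 in C57BL/6J F2, 963 ± 241 in vehicle FVB/N and 1182 ± 310 in exposed FVB/N. Both FVB/N values lay above the 3 C57BL/6J values. No neighbours in this order differed by more than the model SD, the closest being vehicle FVB/N and C57BL/6J F2 with 296 counts and a model SD of 299. The 7 general epithelial markers summed to 11599, 9025, 12649, 18762.5 and 16452 counts in the same order of conditions, and none of them was at 3 counts or fewer. The part of epithelial RNA in the Slc9a3 difference was not tested.

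Slc4a9 (chr18:36528147-36556273, plus strand) encodes a bicarbonate transporter of the basolateral membrane of intercalated cells. It had 5.95 ± 3.94, 6.21 ± 3.99, 11.8 ± 5.65, 10.5 ± 5.17 and 12.4 ± 6.08 counts. It failed the filter of 10 counts in the C57BL/6J F1 ratio and passed it in the F2 and strain ratios only through the condition where it was higher. No difference exceeded its model SD, and at this depth none was detectable.

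Cftr (chr6:18170687-18322768, plus strand) encodes the cyclic AMP-gated anion channel of the apical membrane. Its counts were 113 ± 29.8 in vehicle C57BL/6J, 120 ± 31.6 in exposed C57BL/6J, 74.4 ± 20.9 in C57BL/6J F2, 59.5 ± 17.4 in vehicle FVB/N and 113 ± 35.0 in exposed FVB/N. The C57BL/6J F1 conditions and exposed FVB/N lay close together, with steps of 7.53 and 0.222 counts between them, and vehicle FVB/N was the lowest. A processed pseudogene lies within Cftr on the same strand. Car2 (chr3:14886273-14900770, plus strand) encodes the cytosolic carbonic anhydrase that supplies protons and bicarbonate to the transporters. Its counts were 579 ± 140, 533 ± 124, 359 ± 84.7, 264 ± 64.0 and 308 ± 72.0 in the same order. In its order of conditions, the step that exceeded its model SD of 150 was that of 175 counts from exposed C57BL/6J to C57BL/6J F2, which is also the step between the library sets.

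Of 41 other genes of bicarbonate and ion transport, between 33 and 36 passed the filter in a ratio. At 2 log2 units, 0 were higher and 1 lower in exposed C57BL/6J against vehicle C57BL/6J, beside 0.0357% and 0.256% of all genes, and 0 and 0 in exposed FVB/N against vehicle FVB/N, beside 0.662% and 0.0182%. Against vehicle C57BL/6J, 0 were higher and 3 lower in C57BL/6J F2, beside 0.584% and 3.61%, and 1 was higher and 4 lower in vehicle FVB/N, beside 1.44% and 8.88%. Against exposed C57BL/6J, 1 was higher and 2 were lower in C57BL/6J F2, beside 0.333% and 3.30%. Car3, a carbonic anhydrase of fat, muscle and liver, had 3575 ± 1765 counts in vehicle C57BL/6J, 4593 ± 2289 in exposed C57BL/6J and between 531 and 722 in the other 3 conditions. Car4, the membrane-anchored form of apical membranes, went the other way, with 31.0 ± 11.5, 12.2 ± 5.72, 74.3 ± 22.1, 366 ± 97.1 and 468 ± 111 counts. Adcy10, the bicarbonate-sensing adenylyl cyclase of sperm, had 266 ± 64.4 counts in vehicle C57BL/6J and 41.9 ± 13.6 in vehicle FVB/N. The late germ cell markers summed to 83011.5 and 6862 counts in these 2 conditions. The part of germ cell RNA in the Adcy10 difference was not tested. The remaining calls were of Car5a and Atp12a, which stayed under 100 counts and are named after their values were seen. Car5a had 5.87 ± 4.04 counts in C57BL/6J F2 and passed the filter in both F2 ratios only through the C57BL/6J F1 conditions. Atp12a, a proton potassium ATPase, had 49.0 ± 24.3 counts in vehicle C57BL/6J and between 2.12 and 7.74 elsewhere, so that it passed the filter only through vehicle C57BL/6J. Car9, a hypoxia-induced membrane form, was the most abundant gene of the list per kb in vehicle C57BL/6J and C57BL/6J F2, and Car3 was so in exposed C57BL/6J. Medians of the list ranged from 0.01 to 0.27.

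Aqp9 (chr9:71110659-71168682, minus strand), the aquaglyceroporin of principal cells that carries water and small solutes, was the steadiest of the 10 genes. It had 1781 ± 480 counts in vehicle C57BL/6J, 2070.1 ± 609 in exposed C57BL/6J, 1924 ± 522 in C57BL/6J F2, 1697 ± 455 in vehicle FVB/N and 1672 ± 449 in exposed FVB/N. The highest and lowest differed by 398 counts, with a model SD of 756. Aqp9 is also a channel of hepatocytes. The 10 hepatocyte markers, of which 6 differed by more than their model SD in the strain ratio, summed to 240074, 221634, 6277, 1574 and 1102 counts in the same order. Aqp9 in exposed FVB/N was 0.939 times its value in vehicle C57BL/6J. The part of hepatocyte RNA in the Aqp9 values was not tested.

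Aqp1 (chr6:55336432-55348555, plus strand), the water channel of efferent duct, capillary and red cell membranes, had 341 ± 88.5, 331 ± 86.9, 156 ± 38.5, 108 ± 29.0 and 85.6 ± 23.7 counts. The C57BL/6J F1 conditions were high, C57BL/6J F2 was intermediate and both FVB/N conditions were low. The step from exposed C57BL/6J to C57BL/6J F2, of 176 counts with a model SD of 95.1, was the only one between neighbours that exceeded its model SD. It is also the step between the library sets. Per kb, Aqp1 made up 23.2% ± 6.67 of the sum of Aqp1 and Aqp9 in vehicle C57BL/6J and 7.47% ± 2.67 in exposed FVB/N, a difference of 15.7 percentage points with a model SD of 7.18. These were the highest and the lowest share over the conditions, and they come from different library sets. The share was 20.15% in exposed C57BL/6J, 11.3% in C57BL/6J F2 and 9.16% in vehicle FVB/N. It does not depend on the scaling between conditions, but it can differ between library sets.

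Of 10 other aquaporins, between 4 and 7 passed the filter in a ratio. Against vehicle C57BL/6J, 0 were higher and 1 lower at 2 log2 units in C57BL/6J F2, beside 0.584% and 3.61% of all genes, and 3 were higher and 2 lower in vehicle FVB/N, beside 1.44% and 8.88%. The 3 higher ones, Aqp2, Aqp3 and Aqp6, were under 3 counts in vehicle C57BL/6J and passed the filter only through vehicle FVB/N. Against exposed C57BL/6J, 0 were higher and 1 lower in C57BL/6J F2, beside 0.333% and 3.30%, and there was no call at 2 log2 units in either F1 exposure ratio. At 1 log2 unit, 0 were higher and 1, Aqp2, was lower in exposed against vehicle FVB/N, at -1.48, beside 2.16% and 0.619% of all genes. In that ratio 2 of 6 aquaporins differed by more than the model SD, beside 5.65% of all genes. Aqp2, the vasopressin-regulated channel of the kidney collecting duct, had 2.84 ± 2.24, 2.56 ± 2.24 and 8.39 ± 4.58 counts in the C57BL/6J conditions, and 1181 ± 357 in vehicle FVB/N and 424 ± 107 in exposed FVB/N. The first 2 values lie under 3 counts, taken as the limit of detection. Per kb, Aqp2 stood above Aqp9 in vehicle FVB/N (833 against 409 counts per kb) and below it in the other 4 conditions. Aqp8 had 191.5 ± 54.6 and 182 ± 55.3 counts in the C57BL/6J F1 conditions and between 6.48 and 9.67 in the other 3. In the F2 and strain ratios it passed the filter only through the C57BL/6J F1 conditions. Aqp11, an intracellular aquaporin, had 1145 ± 296 counts in vehicle C57BL/6J and 278 ± 65.5 in vehicle FVB/N. Aqp3 and Aqp6 stayed under 100 counts and are named after their values were seen.

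**Figure D4:**
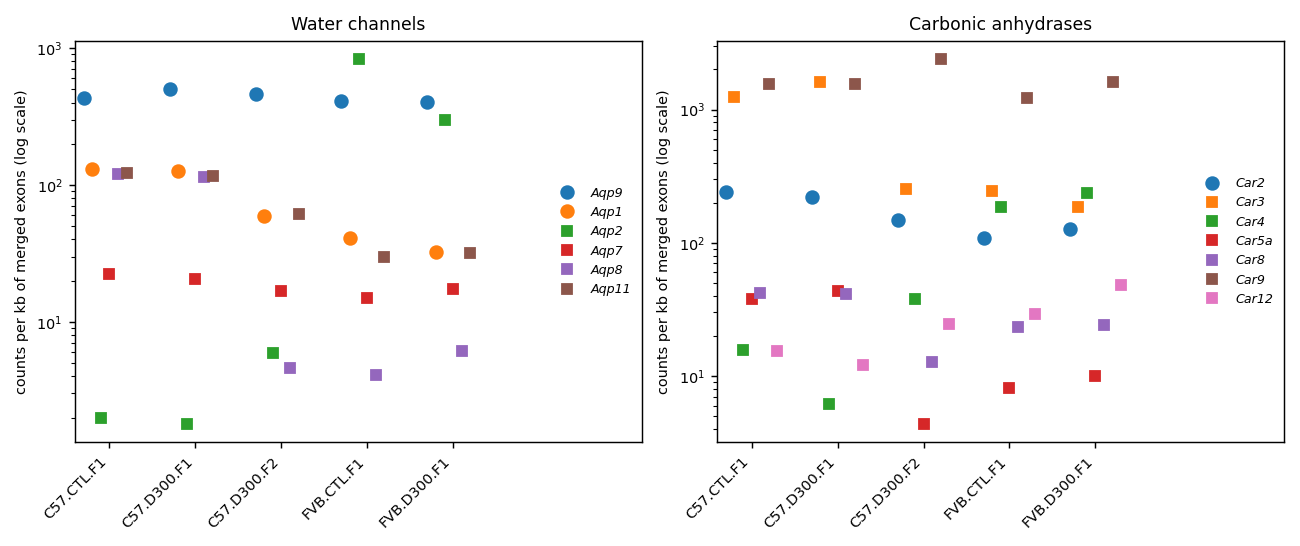
Counts per kb of merged exons (y axis, log scale) of water channels and of carbonic anhydrases in the 5 conditions (x axis), with circles for Aqp9, Aqp1 and Car2 and squares for other family members. Aqp9 lies between 403.5 and 499.7 throughout, Aqp1 falls short of 60 outside the C57BL/6J F1 conditions, and Aqp2 and Car4 are highest in FVB/N.

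The sums of several marker lists were lower in C57BL/6J F2 and FVB/N than in vehicle C57BL/6J, as Aqp1 and Car2 were. In the order vehicle C57BL/6J, exposed C57BL/6J, C57BL/6J F2, vehicle FVB/N and exposed FVB/N, the 7 endothelial markers summed to 1615, 2017, 1257, 872 and 782 counts. The 8 leukocyte markers summed to 7846.5, 8628, 4327, 2553 and 2826. None of the endothelial, leukocyte or hepatocyte markers was at 3 counts or fewer in any condition. The 6 red cell markers summed to 1721, 1698, 2827, 1065 and 5219 counts, and Hba-a1 had at most 0.00519 counts. In the strain ratio all 4 that passed the filter were lower in vehicle FVB/N. Against vehicle C57BL/6J, 3 of 4 were higher in C57BL/6J F2, and Alas2 was lower, at 433 against 710 counts. All 4 were higher in exposed FVB/N than in vehicle FVB/N, with Hbb-bs at 2276 ± 1311 and Hba-a2 at 2213 ± 976 counts in exposed FVB/N. Late germ cell markers summed to 83011.5, 69634, 27868, 6862 and 8181. In C57BL/6J F2 against vehicle C57BL/6J, 3 of 7 endothelial, 5 of 8 leukocyte and 6 of 8 germ cell markers differed by more than the model SD, beside 26.9% of all genes. In the strain ratio 4 of 7, 8 of 8 and 8 of 8 did so, beside 41.2%. There 6 of the 7 endothelial markers were lower in vehicle FVB/N, and Vwf was not, with 157 against 150 counts. The part of these cell types in the Aqp1 and Car2 values was not tested.

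**Figure D5:**
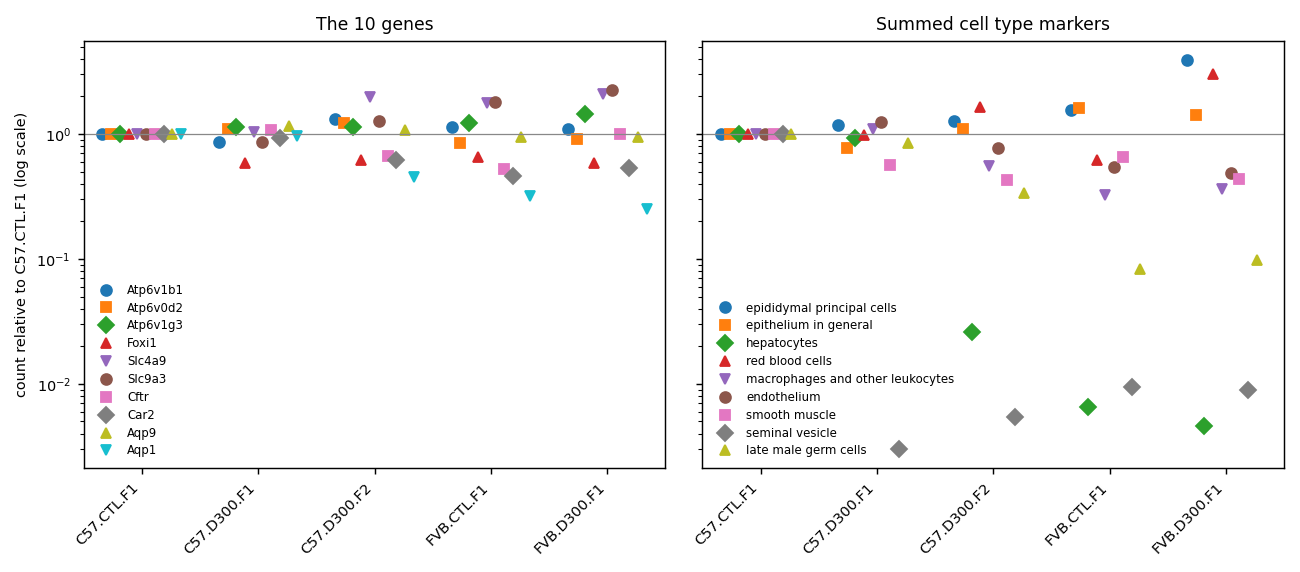
Counts relative to vehicle C57BL/6J (y axis, log scale) of the 10 genes (left) and of summed cell type markers (right) in the 5 conditions (x axis), with points set apart sideways for legibility. Aqp1 has the lowest of the genes' values, in exposed FVB/N. Seminal vesicle markers, whose model SDs exceed their counts in vehicle C57BL/6J, lie lower outside vehicle C57BL/6J. Hepatocyte markers lie much lower outside both C57BL/6J F1 conditions. In both C57BL/6J F1 conditions, Alb and Apob have model SDs above their counts. The sum of principal cell markers is highest in exposed FVB/N, where Adam7 and Gpx5 have model SDs above their counts.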

How the data were processed

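Sperm RNA was measured in 25 libraries, 5 for each of 5 conditions, as the labels group them. The authors clipped adapters, kept reads of at least 18 bases, mapped them to mm10 with TopHat in a strand-specific setting and quantified genes with Cuffdiff (base calling by CASAVA 1.8.2, per the labels). The release of their annotation is not given in the sources used here. The deposited signal is 1 estimated fragment count per gene and condition, scaled by Cuffdiff and not divided by length. The variance of its model gave the model SD. Failed estimates (71 genes in at least 1 condition) were treated as missing.

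Log2 ratios were computed with a pseudocount of 1 for genes with at least 10 counts in a compared condition, called at 2 log2 units, and set beside the model SD of the difference. The SD of a share was propagated from both model SDs, taken as independent. With 1 value per condition, no test was run. Counts per kb used merged exons of GENCODE M21, in which Cftr and Aqp9 overlap pseudogenes or antisense genes and the other 8 genes overlap none. All 10 genes are named. From the wider lists, up to 4 called genes per ratio with at least 100 counts are named, and the most abundant per kb. The genes and lists were chosen with earlier results of these data known. Equal totals, median-of-ratios and upper-quartile scaling, pseudocounts of 0.1 and 10, minimum counts of none and 100, calls at 1 log2 unit or beyond the model SD, and a floor of 3 counts were tried. The procedure was tested on simulated data, with changes of 3 log2 units set in 200 genes of at least 100 counts. These changes are larger than those of the 10 genes, so the test does not bear on differences as small as theirs. Python 3.11.15, numpy 2.4.6, pandas 2.3.3 and matplotlib 3.10.9 were used.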

Additional observations from a re-analysis of the deposited data

How the results depend on the processing

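No paired analysis was possible because the table has 1 value per condition, so replicate numbers tie no values together, and no library could be left out. All 461 recomputed log2 ratios of the 10 genes and all 48 recomputed medians stayed within 0.5 log2 units of the reported values. At 2 log2 units 0 of 10 genes were called under every alternative that kept that threshold. With a call at 1 log2 unit, 1 gene was lower in C57BL/6J F2 against vehicle C57BL/6J, 1 against exposed C57BL/6J, and 2 in vehicle FVB/N against vehicle C57BL/6J. The sign of a ratio or median changed in 19 cases, none of them above 0.18 log2 units as reported. The largest move of a median was 0.39, in C57BL/6J F2 against vehicle C57BL/6J, which was 0.15 as reported and -0.24 with at least 100 counts. Equal totals shifted the median of all genes by 0.32 in that ratio, by -0.13 to 0.19 in the other ratios and by -0.28 in the strain by exposure difference. Upper-quartile factors shifted it by 0.22, 0.19 and 0.17 in the F2 and strain ratios. The numbers of all genes called depended more on the settings. Genes higher in C57BL/6J F2 than in vehicle C57BL/6J numbered 100 as reported, 175 with equal totals, 157 without a filter, 31 with at least 100 counts and 27 with a pseudocount of 10. In vehicle FVB/N against vehicle C57BL/6J, 246 were higher and 1518 lower as reported, 103 and 997 with a pseudocount of 10, and 98 and 941 with at least 100 counts. The model SD was between 0.231 and 0.313 of the count for 9 genes and reached 0.662 for Slc4a9, which limits what these values can resolve.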

Other observations

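No gene of the 10 spanned 2 log2 units over the 5 conditions, the limit set for naming genes of similar profile, so those that spanned 1 unit were used instead, a choice made after seeing the data. Over 11237 genes with at least 100 counts in some condition, likeness was the root mean square difference of centred log2 counts over the 5 conditions. With 5 points per gene, many genes come close to any profile.

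The profile of Slc9a3, high in FVB/N, was closest to those of Fat2, Uhrf2 and Anks3, with differences of 0.022, 0.038 and 0.040. Fat2, a giant cadherin, had 146 counts in vehicle C57BL/6J, 120 in exposed C57BL/6J, 176 in C57BL/6J F2, 257 in vehicle FVB/N and 315 in exposed FVB/N. For Car2 the closest were Glcci1, Uchl3 and Fhad1, with 0.026, 0.027 and 0.033. For Aqp1 they were Ugp2, Bmp2 and Rasgrp2, with 0.065, 0.077 and 0.077. Ugp2, the enzyme that makes UDP-glucose, had 1054, 1118, 463, 356 and 279 counts in the order above.

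The profile of Cftr, low in C57BL/6J F2 and vehicle FVB/N, had more distant neighbours. These were Gamt, of creatine synthesis, at 0.072, Glul, glutamine synthetase, at 0.112, and Fam134b at 0.141. Glul had 4589, 5554, 3331, 2241 and 4436 counts.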
